A study of Homo sapiens with 18 samples.

Results

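Collagen genes were examined in foregut endoderm made from human embryonic stem cells. Membership was set by name: a gene belonged if its symbol in the count table was COL, a number, A and a number. This gave 44 collagen genes among 34989 genes with a symbol. They comprised 11 fibrillar collagens, 6 type IV collagens of basement membranes and 27 other collagens. Of the 44, 41 passed the filter on low counts and were tested. COL6A5, COL10A1 and COL20A1 did not pass and had at most 1.55 CPM in any library. CPM here is counts per 1000000 counts after scaling of the libraries.

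The study addressed how retinoic acid (RA), given early, changes the foregut and its later response to signals that induce a respiratory fate. H1, an established human embryonic stem cell line with a wild-type genotype in all groups, was differentiated to foregut endoderm, and RNA was sequenced in bulk from 18 libraries in 6 groups of 3. RA cells received 2 µM all-trans retinoic acid for the 24 h that ended at day 6. CHIR/BMP4 cells received 2 µM CHIR99021, an activator of canonical Wnt signalling, with 50 ng/mL BMP4 for the 72 h from day 6 to day 9. The groups are called RA-CHIR/BMP4 (RA, then CHIR99021 and BMP4, day 9), CHIR/BMP4 (no RA, day 9), RA day 9 (RA, then neither factor), untreated day 9, RA day 6 and untreated day 6. The data come from a single cell line in culture. Whether the 3 libraries of a group were independent cultures is not stated, so every p-value here reflects the scatter among the sequenced libraries, which may be technical.

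Collagens are secreted proteins built from chains that wind around each other in threes as a triple helix. Fibrillar collagens assemble into the tensile fibrils of connective tissue, and type IV collagens form the sheet-like network of the basement membrane that lies under an epithelium such as the endoderm. The other classes decorate fibrils, link them to basement membranes, form beaded filaments or span the cell membrane.

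Library totals ran between 5792269 and 25371403 counts, and collagen genes held 0.661% to 1.13% of the counts. Endoderm markers were detected in all groups, with summed levels of 1240 to 2650 CPM for 8 genes. The sum was highest in RA day 9 cells, at 2470 to 2650 CPM, and at most 2160 CPM in any other library. FOXA2, a forkhead factor of the endoderm, averaged 171 CPM in RA-CHIR/BMP4 cells, 18.9 CPM in CHIR/BMP4 cells, 104 CPM in RA day 9 cells, 34.1 CPM in untreated day 9 cells, 235 CPM in RA day 6 cells and 92 CPM in untreated day 6 cells. Libraries also stood apart in a way that follows treatment. In all, 64 genes differed at least 10-fold between treated and untreated libraries, 58 of them annotated as pseudogenes in RefSeq, against 3.64% of 13717 genes with at least 2 CPM on average. No collagen gene was among the 64. The 36 of these genes that were higher in treated libraries took 94% to 95.8% of the set's counts in treated libraries, and 0.351% to 0.608% in untreated day 9 libraries and untreated day 6 library 2. Untreated day 6 libraries 1 and 3 lay apart, at 8.92% and 17.6%, and were left out when the 64 genes were chosen. With this share as a covariate, no collagen gene was called in any comparison of treated with untreated cells on the same day, and 0.109% to 0.579% of all genes were. In those comparisons the treatment and this library feature cannot be told apart. Comparisons within treated libraries are free of the split: RA-CHIR/BMP4 against CHIR/BMP4, RA-CHIR/BMP4 against RA day 9, and RA day 9 against RA day 6.

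The 6 type IV genes lie as 3 head-to-head pairs, each pair transcribed in opposite directions from a shared start region, and these stretches are shown because each pair's members were compared with each other. The stretches are from RefSeq on build GRCh38.p14, plus strand, and end at the base before the start of the plus-strand gene. Capitals mark matches on either strand to the CCAAT box (letters CCAAT) or the GC box (letters GGGCGG).
COL4A1 and COL4A2: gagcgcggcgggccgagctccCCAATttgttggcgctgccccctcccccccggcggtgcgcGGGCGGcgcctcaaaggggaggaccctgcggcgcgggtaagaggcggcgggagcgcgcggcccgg
COL4A4 and COL4A3: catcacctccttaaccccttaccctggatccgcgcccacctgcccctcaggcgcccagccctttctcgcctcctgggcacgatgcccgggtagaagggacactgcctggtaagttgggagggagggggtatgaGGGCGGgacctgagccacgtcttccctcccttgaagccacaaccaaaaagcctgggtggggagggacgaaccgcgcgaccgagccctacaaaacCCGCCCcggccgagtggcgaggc
COL4A6 and COL4A5: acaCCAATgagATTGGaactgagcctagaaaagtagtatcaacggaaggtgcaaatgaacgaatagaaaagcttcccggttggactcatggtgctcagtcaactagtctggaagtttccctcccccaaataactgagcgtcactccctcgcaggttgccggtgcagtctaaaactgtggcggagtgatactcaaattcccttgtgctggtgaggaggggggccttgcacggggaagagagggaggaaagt
The first stretch, chr13:110307158-110307283, is the whole interval of 126 bases between the starts of COL4A1 (minus strand) and COL4A2 (plus strand). It is 80.2% G and C and holds 1 CCAAT box and 1 GC box. Of 35116 RefSeq promoters cut to the same length, 21.1% hold a CCAAT box and 34.6% a GC box. The second, chr2:227164374-227164623, is the 250 bases nearest COL4A3 of an interval of 418 bases to the start of COL4A4 in the RefSeq promoter table. The RefSeq gene record of COL4A4 reaches further, to base 227164488, so the left part of this stretch lies inside that record. It holds 2 GC boxes and no CCAAT box. The third, chrX:108439588-108439837, is the 250 bases nearest COL4A5 of an interval of 379 bases to the start of COL4A6 nearest to it in that table. It holds 2 CCAAT boxes and no GC box. At 250 bases, 32% of promoters hold a CCAAT box and 42.6% a GC box. None of the 3 stretches holds the letters TATAAA on either strand, which 5.87% of promoters of 126 bases and 10.7% of 250 bases do. These matches describe letters and not binding.

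By transcript level, COL2A1 and COL18A1 led the family. Levels of different genes are compared in TPM, transcripts per 1000000, which divides by gene length. COL2A1, the fibrillar chain of cartilage and of the embryonic notochord sheath, had the highest collagen TPM in RA-CHIR/BMP4 cells (1190 ± 79.9), CHIR/BMP4 cells (1510 ± 45.9), untreated day 9 cells (863 ± 15.2) and untreated day 6 cells (820 ± 106; SD, n = 3 each). COL18A1, a basement membrane collagen whose C-terminal fragment is endostatin, was highest in RA day 6 cells (954 ± 45 TPM) and in RA day 9 cells (678 ± 18.4 TPM). In RA day 9 cells it was followed by COL1A1 at 662 ± 121 TPM, a gap smaller than the spread of COL1A1. COL26A1, a chain of developing gonads in mice, came next after these genes in RA-CHIR/BMP4, CHIR/BMP4, untreated day 9 and RA day 6 cells.

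**Figure D1:**
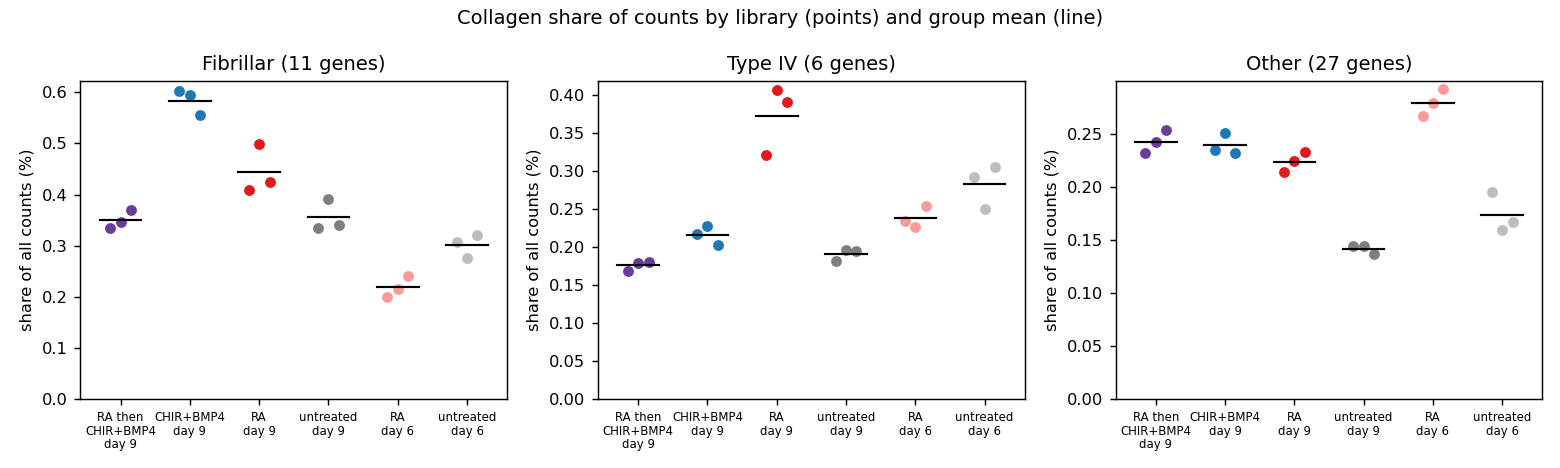
Share of all counts (%, y axis) held by fibrillar, type IV and other collagens in each library (points), with the group mean (line), for 6 groups. The type IV share was highest in RA day 9 cells, at 0.321% to 0.407%, and the fibrillar share in CHIR/BMP4 cells, at 0.556% to 0.602%.

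As a share of all counts, fibrillar collagens held 0.351% ± 0.0178 in RA-CHIR/BMP4 cells, 0.584% ± 0.0246 in CHIR/BMP4 cells, 0.444% ± 0.0474 in RA day 9 cells, 0.356% ± 0.0307 in untreated day 9 cells, 0.218% ± 0.0206 in RA day 6 cells and 0.301% ± 0.0227 in untreated day 6 cells (SD, n = 3 each). Type IV collagens held 0.176% ± 0.00643 in RA-CHIR/BMP4 cells, 0.216% ± 0.0125 in CHIR/BMP4 cells, 0.373% ± 0.0457 in RA day 9 cells, 0.191% ± 0.00814 in untreated day 9 cells, 0.238% ± 0.014 in RA day 6 cells and 0.283% ± 0.0287 in untreated day 6 cells. The plot of shares by library shows that type IV values in RA day 9 cells did not overlap those of any other group. The lead of CHIR/BMP4 cells in the fibrillar class depended on the unit. In summed TPM the fibrillar collagens reached 2260 ± 81.9 in CHIR/BMP4 cells and 2180 ± 287 in RA day 9 cells, with overlapping libraries. COL2A1 alone held 1510 ± 45.9 TPM of that sum in CHIR/BMP4 cells and 519 ± 62.6 TPM in RA day 9 cells.

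Each comparison was tested with edgeR's quasi-likelihood test, fitted on all 15531 genes that passed the filter. A gene was called at a Benjamini-Hochberg adjusted p below 0.05. After RA at day 6, 9 collagen genes rose and 11 fell of 41, or 48.8%, against 48.7% of all genes called (25.3% higher, 23.4% lower), so the share of collagens called was near the background. Without untreated day 6 libraries 1 and 3, 11 were called. The median log2 change was -0.07, against 0.00 for all tested genes.

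At day 9, 3 days after RA ended, 20 collagen genes were higher and 8 lower than in untreated day 9 cells. That is 68.3%, against 65.1% of all genes (32.5% higher, 32.5% lower). The median log2 change was 0.73 for collagens and -0.02 for all tested genes. Of the type IV genes all 6 were higher, and of the 11 fibrillar genes 6 were higher and 2 lower. CHIR/BMP4 cells had 23 collagen genes higher and 3 lower than untreated day 9 cells, against 42.8% of all genes called (21% higher, 21.8% lower). There, 8 of 11 fibrillar genes were higher and 5 of 6 type IV genes were not called.

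Within CHIR/BMP4-treated cells the direction was mostly downward with prior RA. RA-CHIR/BMP4 cells had 6 collagen genes higher and 24 lower than CHIR/BMP4 cells, against 43.3% of all genes called (21.2% higher, 22.1% lower). The median log2 change was -0.71, against -0.01 for all tested genes. Compared with RA day 9 cells, RA-CHIR/BMP4 cells had 10 collagen genes higher and 23 lower, against 64.4% of all genes called (32.1% higher, 32.3% lower). All 6 type IV genes and 8 of 11 fibrillar genes were lower there, with class medians of -1.82 and -2.25 on the log2 scale, beside 0.02 for all tested genes. These comparisons share groups with each other, so their counts are not independent.

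Over time, untreated day 9 cells had 11 collagen genes higher and 15 lower than untreated day 6 cells, against 46.9% of all genes called (24% higher, 22.9% lower). In RA cells, day 9 had 19 higher and 9 lower than day 6, against 58.8% of all genes called (28.5% higher, 30.3% lower). All 6 type IV genes were higher at day 9 in RA cells, while 1 was higher and 5 were lower in untreated cells. The 1 higher in untreated cells was COL4A2, at log2 0.54, beside 0.95 in RA cells. The test of the difference between RA and untreated cells, an interaction of RA with day, called all 6 type IV genes in the positive direction. In that test 50.9% of all genes were called (24.9% higher, 26% lower). The COL4A2 call (log2 0.41, adjusted p = 0.00786) was lost with the library share as a covariate (log2 0.33, adjusted p = 0.076). Without untreated day 6 libraries 1 and 3 its value was 0.29.

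**Figure D2:**
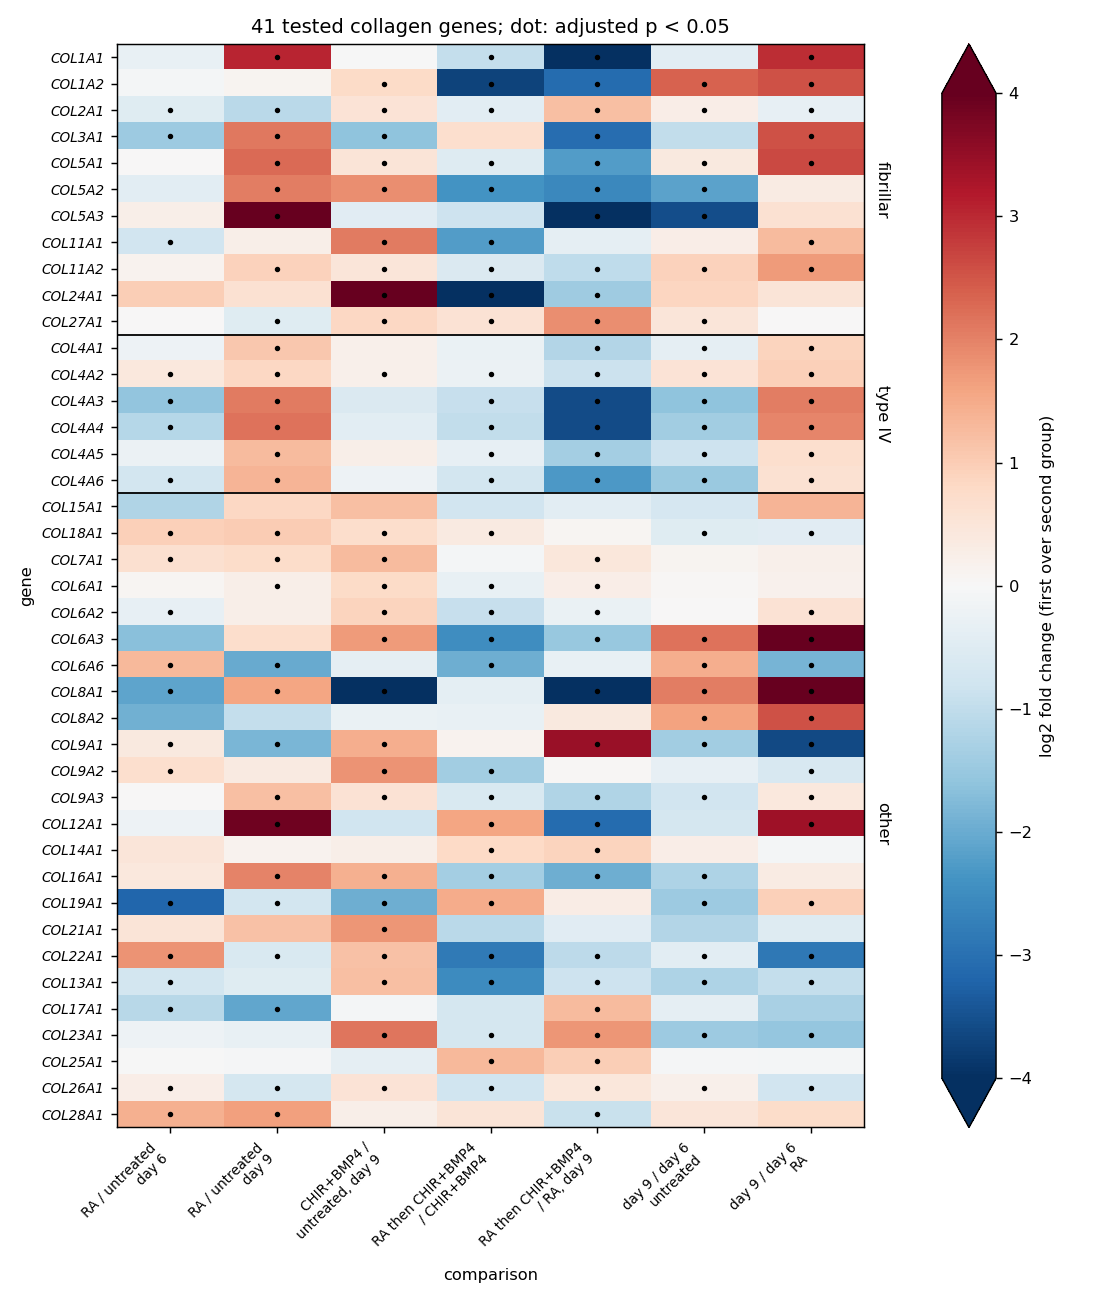
Log2 fold change (color; the first group named over the second) of the 41 tested collagen genes (rows, by class) in 7 comparisons of 2 groups (columns); a dot marks adjusted p below 0.05 by edgeR, and colors saturate at 4. The 6 type IV rows are red with RA at day 9 and blue in RA-CHIR/BMP4 cells over RA day 9 cells.

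Among the fibrillar collagens of soft connective tissue, types I, III and V, COL1A1, COL3A1 and COL5A1 were highest in RA day 9 cells and COL1A2 in CHIR/BMP4 cells. COL1A1 (chr17:50184101-50201631), the α1 chain of type I collagen, had 92.3, 109 and 99.2 CPM in RA-CHIR/BMP4 cells, 202, 189 and 190 CPM in CHIR/BMP4 cells, 1300, 1880 and 1640 CPM in RA day 9 cells, and 147, 304 and 138 CPM in untreated day 9 cells. At day 6 it had 154, 217 and 258 CPM in RA cells and 258, 250 and 265 CPM in untreated cells. The RA day 9 libraries thus lay above all others without overlap. COL1A1 was 8.26-fold higher in RA day 9 cells than in untreated day 9 cells (log2 3.05 ± 0.28 SE, adjusted p = 4.2e-07). It was 16.1-fold lower in RA-CHIR/BMP4 cells than in RA day 9 cells (log2 -4.01 ± 0.29, adjusted p = 3.7e-08). At day 6 RA and untreated libraries overlapped, and no change was called (log2 -0.30 ± 0.26, adjusted p = 0.373).

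COL1A2 (chr7:94394895-94431227), the α2 chain of type I collagen, followed another course. It had 59.8, 75.1 and 62.7 CPM in RA-CHIR/BMP4 cells, 817, 996 and 768 CPM in CHIR/BMP4 cells, 479, 642 and 543 CPM in RA day 9 cells, and 476, 514 and 542 CPM in untreated day 9 cells. The day 6 libraries had 79.5, 88.7 and 117 CPM in RA cells and 90.2, 102 and 106 CPM in untreated cells. The CHIR/BMP4 libraries were the highest and the RA-CHIR/BMP4 libraries the lowest of all 18, neither overlapping another group. RA-CHIR/BMP4 cells were 13.1-fold below CHIR/BMP4 cells (log2 -3.71 ± 0.15, adjusted p = 3e-12). In RA day 9 cells COL1A2 differed little from untreated day 9 cells (log2 0.12 ± 0.13, adjusted p = 0.441), unlike COL1A1.

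**Figure D3:**
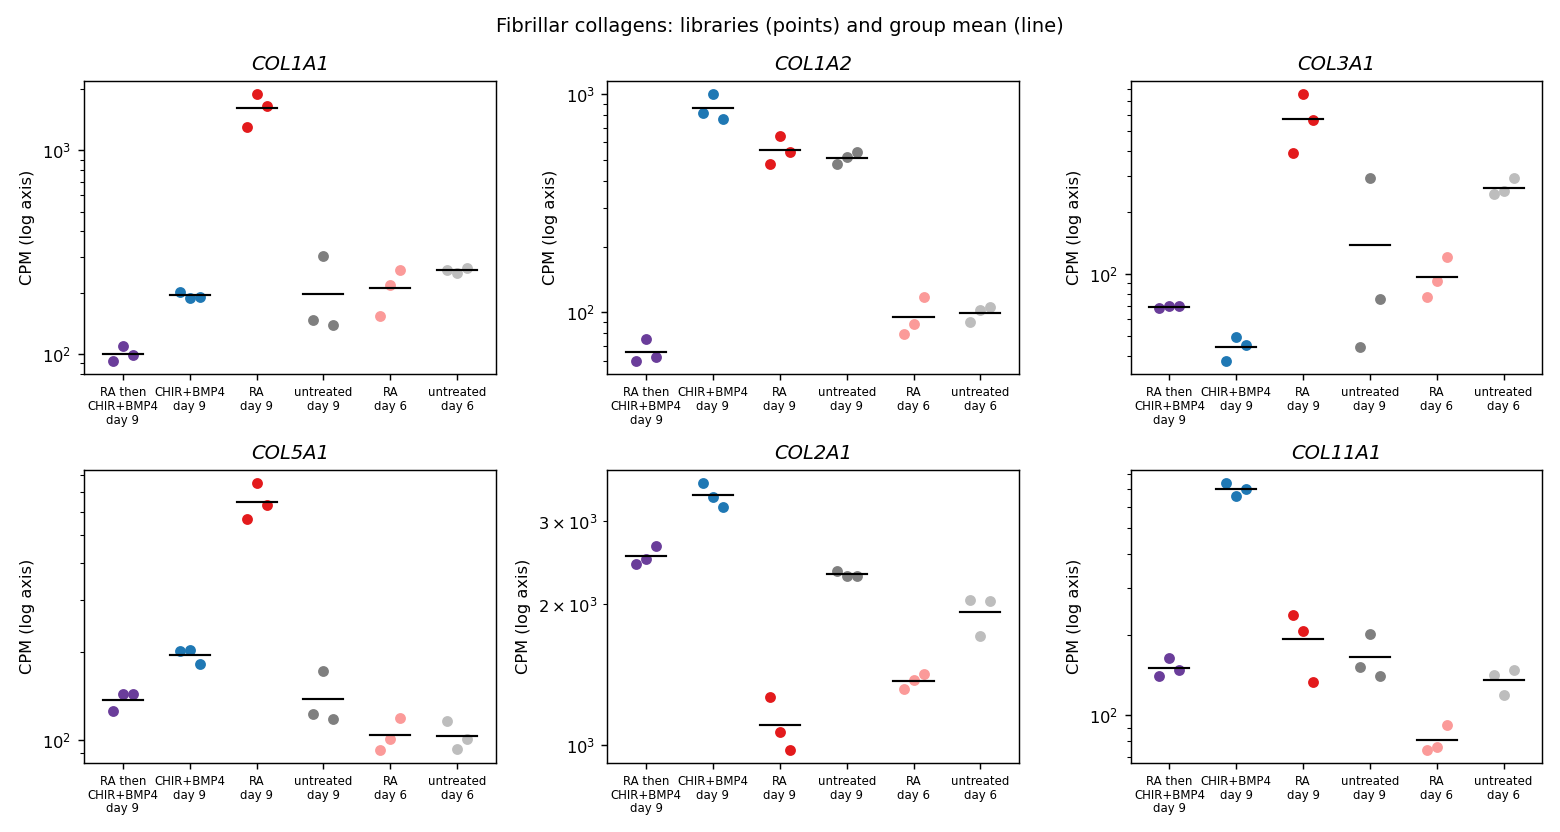
CPM (y axis, log scale) of 6 fibrillar collagens in each library (points), with the group mean (line), by group. COL1A1, COL3A1 and COL5A1 were highest in RA day 9 libraries, and COL1A2, COL2A1 and COL11A1 in CHIR/BMP4 libraries.

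COL3A1, which forms type III collagen and mixes with type I in fibrils, and COL5A2, a chain of the type V collagen that starts fibrils, are neighbours on chromosome 2 (chr2:188974373-189012746 and chr2:189031898-189179761). COL3A1 had 68.1, 69.5 and 70 CPM in RA-CHIR/BMP4 cells, 37.6, 49.3 and 44.9 CPM in CHIR/BMP4 cells, 391, 755 and 565 CPM in RA day 9 cells, and 43.9, 295 and 75.3 CPM in untreated day 9 cells. Day 6 values were 77.7, 92.6 and 121 CPM in RA cells and 245, 254 and 294 CPM in untreated cells. The RA day 9 libraries were above all others, and untreated day 9 library 2 stood apart from its own group. COL3A1 was 4.28-fold higher in RA day 9 than in untreated day 9 cells (log2 2.10 ± 0.53, adjusted p = 0.00362), a call lost when only those groups entered the fit (adjusted p = 0.096). Without untreated day 9 library 2 the log2 change was 3.32 (adjusted p = 1.6e-06). It was 8.26-fold lower in RA-CHIR/BMP4 than in RA day 9 cells (log2 -3.05 ± 0.55, adjusted p = 0.00029). Its lower level in CHIR/BMP4 than in untreated day 9 cells (log2 -1.61 ± 0.55, adjusted p = 0.0318) rested on untreated day 9 library 2, without which the log2 change was -0.39 (adjusted p = 0.33). That call was also lost without any 1 of the 3 CHIR/BMP4 libraries (adjusted p = 0.092, 0.06 and 0.077). At day 6 COL3A1 was lower with RA (log2 -1.45 ± 0.53, adjusted p = 0.0367), but without any 1 of the 6 libraries of that comparison it was not called (adjusted p = 0.053 to 0.11).

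COL5A1, the other main chain of type V collagen, had 126, 143 and 143 CPM in RA-CHIR/BMP4 cells, 201, 203 and 182 CPM in CHIR/BMP4 cells, 565, 752 and 632 CPM in RA day 9 cells, and 123, 172 and 118 CPM in untreated day 9 cells. At day 6 it had 92.6, 101 and 119 CPM in RA cells and 116, 93.4 and 101 CPM in untreated cells. RA day 9 cells again stood above all other groups, 4.75-fold over untreated day 9 cells (log2 2.25 ± 0.14, adjusted p = 2e-10). COL5A2 had 22.7, 26.5 and 27.8 CPM in RA-CHIR/BMP4 cells, 156, 105 and 135 CPM in CHIR/BMP4 cells, 90.8, 212 and 150 CPM in RA day 9 cells, and 28.1, 59.9 and 27 CPM in untreated day 9 cells. The day 6 libraries had 91.6, 114 and 158 CPM in RA cells and 150, 184 and 151 CPM in untreated cells. COL5A2 was thus similar in CHIR/BMP4, RA day 9 and both day 6 groups, which overlapped, and lower in both other day 9 groups, without overlap. It was 6-fold lower in RA-CHIR/BMP4 cells than in RA day 9 cells (log2 -2.58 ± 0.36, adjusted p = 3e-05), and 5.23-fold lower than in CHIR/BMP4 cells (log2 -2.39 ± 0.36, adjusted p = 0.00012). COL5A3, a minor type V chain, had 5.45, 6.68 and 9 CPM in RA day 9 cells and 0.321, 0.681 and 0 CPM in untreated day 9 cells, without overlap.

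Of the fibrillar collagens known from cartilage, COL2A1 and COL27A1 were lower in RA day 9 than in untreated day 9 cells, COL11A2 was higher and COL11A1 was not called. COL2A1 (chr12:47972967-48004476) had 2430, 2500 and 2660 CPM in RA-CHIR/BMP4 cells, 3620, 3380 and 3220 CPM in CHIR/BMP4 cells, 1270, 1070 and 979 CPM in RA day 9 cells, and 2350, 2290 and 2300 CPM in untreated day 9 cells. Day 6 values were 1320, 1380 and 1420 CPM in RA cells and 2040, 1710 and 2030 CPM in untreated cells. Libraries with RA alone were the lowest at either day, and the 4 day 9 groups did not overlap each other. The level was 2.09-fold lower in RA day 9 than in untreated day 9 cells (log2 -1.07 ± 0.09, adjusted p = 2.9e-10). It was 2.29-fold higher in RA-CHIR/BMP4 than in RA day 9 cells (log2 1.19 ± 0.09, adjusted p = 3.7e-11). Markers shared with cartilage and notochord were low throughout: the summed level of SOX9, ACAN, MATN1, CHAD, TBXT and NOTO was 12.4 to 14.7 CPM in RA-CHIR/BMP4 cells, 11 to 13.7 CPM in CHIR/BMP4 cells, 31.4 to 53.6 CPM in RA day 9 cells and 10.4 to 13.6 CPM in untreated day 9 cells. At day 6 it was 14.8 to 22.5 CPM in RA cells and 11.2 to 13.8 CPM in untreated cells. That sum was highest where COL2A1 was lowest, in RA day 9 cells, where SOX9 averaged 26.6 CPM and ACAN 15.3 CPM. MATN1, CHAD, TBXT and NOTO averaged at most 0.549 CPM in any group, so the sum is in effect that of SOX9 and ACAN.

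COL11A1, a chain of the type XI collagen found inside type II fibrils, had 140, 164 and 148 CPM in RA-CHIR/BMP4 cells, 739, 659 and 701 CPM in CHIR/BMP4 cells, 238, 206 and 133 CPM in RA day 9 cells, and 152, 202 and 140 CPM in untreated day 9 cells. At day 6 it had 74.4, 76.5 and 91.9 CPM in RA cells and 141, 119 and 148 CPM in untreated cells. CHIR/BMP4 libraries stood alone at the top, 4.26-fold over untreated day 9 cells (log2 2.09 ± 0.18, adjusted p = 2.6e-07), and RA-CHIR/BMP4 cells were 4.65-fold below them (log2 -2.22 ± 0.18, adjusted p = 1.4e-07). COL24A1, a fibrillar chain expressed in developing bone in mice, had 18.2, 11.1 and 12 CPM in CHIR/BMP4 cells and 0.138 to 1.44 CPM in the other 15 libraries. RA-CHIR/BMP4 cells were 36.6-fold below CHIR/BMP4 cells for COL24A1 (log2 -5.19 ± 0.36, adjusted p = 5.9e-11). COL27A1, a fibrillar chain of cartilage, was the exception among fibrillar genes, since it was highest in RA-CHIR/BMP4 cells, with 206, 194 and 232 CPM. It had 156, 131 and 134 CPM in CHIR/BMP4 cells, 61.9, 57.6 and 53.3 CPM in RA day 9 cells, and 83.6, 82.9 and 71.7 CPM in untreated day 9 cells. COL27A1 was 1.39-fold lower in RA day 9 than in untreated day 9 cells (log2 -0.47 ± 0.09, adjusted p = 7.0e-05). That call was lost with limma, another test, on log2(TPM + 1) (log2 -0.12, adjusted p = 0.23). COL11A2 stayed between 2.82 and 14.4 CPM and was highest in RA day 9 cells at 13.2, 12.7 and 14.4 CPM, above the CHIR/BMP4 libraries at up to 10.4 CPM. It was 1.9-fold higher in RA day 9 than in untreated day 9 cells (adjusted p = 5.1e-05).

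Type IV collagens, the network of the basement membrane, were higher in RA day 9 cells than in every other day 9 group. COL4A1, with COL4A2 the chains of the network found in nearly all basement membranes, had 484, 503 and 483 CPM in RA-CHIR/BMP4 cells, 608, 623 and 558 CPM in CHIR/BMP4 cells, 856, 1290 and 1130 CPM in RA day 9 cells, and 514, 549 and 503 CPM in untreated day 9 cells. The day 6 libraries had 604, 525 and 623 CPM in RA cells and 793, 606 and 613 CPM in untreated cells. The level in RA day 9 cells was 2.09-fold that of untreated day 9 cells (log2 1.07 ± 0.12, adjusted p = 1.9e-07). COL4A2 had 655, 694 and 715 CPM in RA-CHIR/BMP4 cells, 850, 813 and 797 CPM in CHIR/BMP4 cells, 1080, 1400 and 1300 CPM in RA day 9 cells, and 672, 761 and 687 CPM in untreated day 9 cells. Day 6 values were 631, 626 and 699 CPM in RA cells and 528, 439 and 491 CPM in untreated cells. For both genes RA day 9 libraries lay above all others. COL4A2 was 1.78-fold higher in RA day 9 than in untreated day 9 cells (log2 0.83 ± 0.09, adjusted p = 1.7e-08).

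COL4A3 and COL4A4, which with COL4A5 form the network of the kidney filter and the lung alveolus, had low levels. COL4A3 had 2.92, 3.11 and 2.89 CPM in RA-CHIR/BMP4 cells, 7.09, 4.54 and 5.08 CPM in CHIR/BMP4 cells, 28.6, 49.2 and 28.1 CPM in RA day 9 cells, and 9.72, 7.83 and 6.39 CPM in untreated day 9 cells. At day 6 it had 8.83, 8.99 and 7.5 CPM in RA cells and 31.5, 22.8 and 22.2 CPM in untreated cells. RA thus went with a lower level at day 6, 2.99-fold (log2 -1.58 ± 0.22, adjusted p = 7.7e-06), and with a higher level at day 9, 4.22-fold (log2 2.08 ± 0.22, adjusted p = 7.3e-08). COL4A4 had 2.63, 3.41 and 3.31 CPM in RA-CHIR/BMP4 cells, 6.08, 5.99 and 5.96 CPM in CHIR/BMP4 cells, 28.1, 47.2 and 31.7 CPM in RA day 9 cells, and 9.93, 5.11 and 7.08 CPM in untreated day 9 cells. Its day 6 levels were 9.05, 9.48 and 9.63 CPM in RA cells and 26.3, 19.1 and 17.5 CPM in untreated cells. COL4A4 was 2.23-fold lower with RA at day 6 (log2 -1.15 ± 0.21, adjusted p = 0.00012) and 4.48-fold higher with RA at day 9 (log2 2.16 ± 0.2, adjusted p = 1.1e-08). Both genes were 11.9-fold lower in RA-CHIR/BMP4 than in RA day 9 cells, and the libraries of those groups did not overlap.

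COL4A5 and COL4A6 pair in the basement membranes of smooth muscle and of several epithelia. COL4A5 had 240, 267 and 263 CPM in RA-CHIR/BMP4 cells, 327, 365 and 281 CPM in CHIR/BMP4 cells, 578, 696 and 692 CPM in RA day 9 cells, and 272, 265 and 286 CPM in untreated day 9 cells. Its day 6 levels were 398, 408 and 425 CPM in RA cells and 467, 410 and 586 CPM in untreated cells, which overlapped. COL4A6 had 206, 222 and 218 CPM in RA-CHIR/BMP4 cells, 352, 390 and 325 CPM in CHIR/BMP4 cells, 894, 1100 and 1160 CPM in RA day 9 cells, and 374, 386 and 462 CPM in untreated day 9 cells. At day 6 COL4A6 had 646, 671 and 733 CPM in RA cells and 1110, 1030 and 1300 CPM in untreated cells. The untreated day 6 level of COL4A6 was therefore as high as that of RA day 9 cells, with overlapping libraries. COL4A6 was 2.58-fold higher in RA day 9 than in untreated day 9 cells (log2 1.37 ± 0.1, adjusted p = 1.5e-10) and 4.89-fold lower in RA-CHIR/BMP4 than in RA day 9 cells (log2 -2.29 ± 0.11, adjusted p = 4.3e-14). With prior RA it was also 1.65-fold lower among CHIR/BMP4-treated cells (log2 -0.73 ± 0.1, adjusted p = 6e-06).

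**Figure D4:**
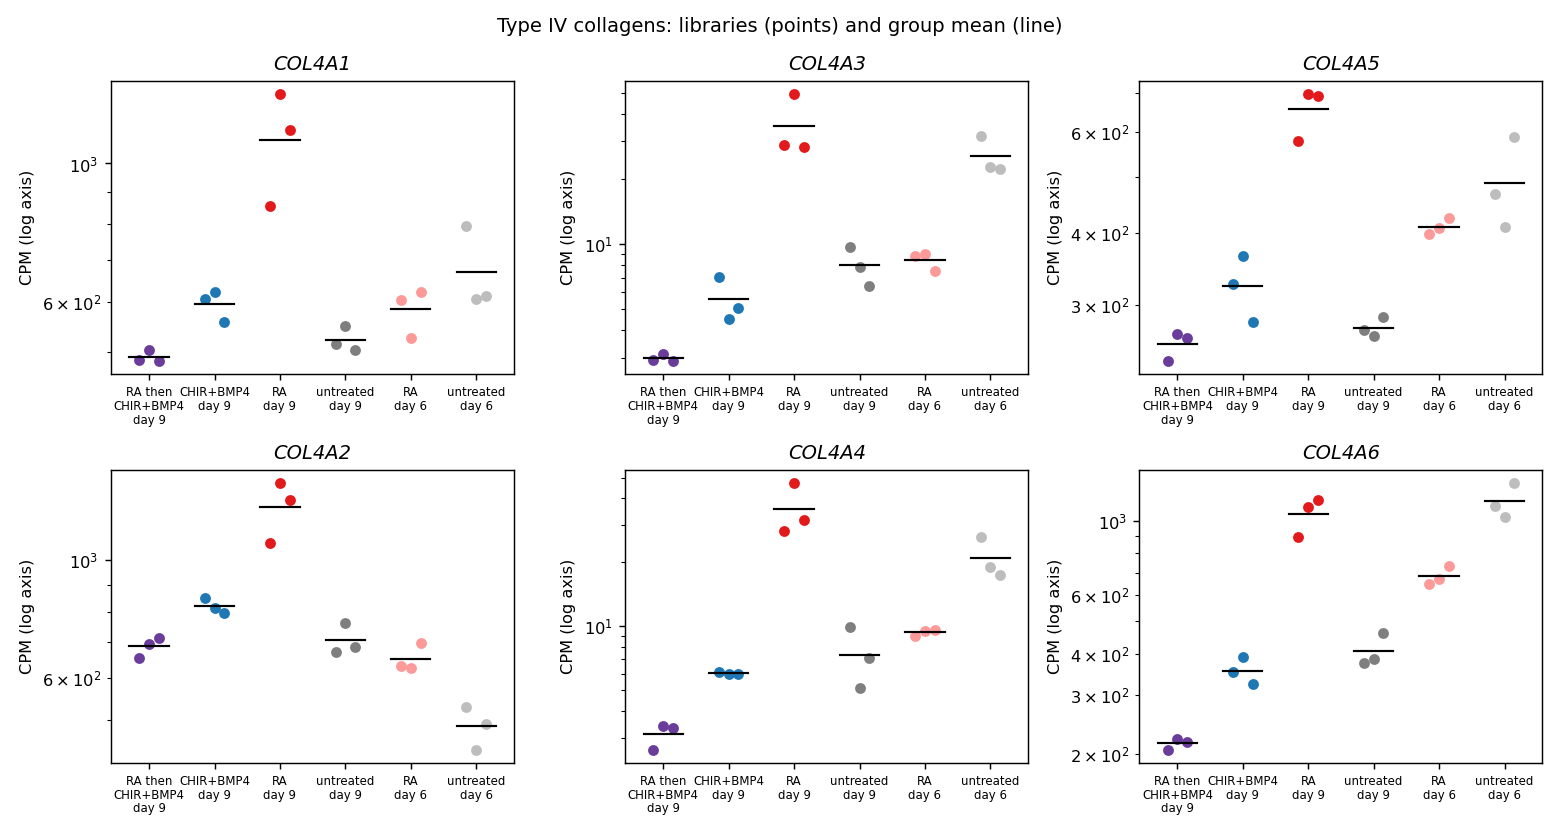
CPM (y axis, log scale) of the 6 type IV collagens in each library (points), with the group mean (line), by group; each column of panels is a head-to-head pair. RA day 9 libraries lay above all other day 9 libraries for each of the 6 genes, and for COL4A3, COL4A4 and COL4A6 the untreated day 6 libraries lay above those of RA day 6. Of all tested genes, 32.5% were called higher in RA day 9 than in untreated day 9 cells. The share of all genes whose libraries separate in these ways was not counted.

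Partner chains kept their proportions to different degrees. The TPM ratio of COL4A3 to COL4A4, the pair of the second printed stretch, stayed within a 2.02-fold span over the 18 libraries, while the TPM levels themselves spanned 16.7-fold and 17.8-fold. These 2 genes had the same call in 6 of 7 comparisons and were both uncalled in the other. COL4A5 and COL4A6 had the same call in 5 of 7, and COL4A1 and COL4A2 in 3 of 7 with 1 opposite. The comparisons share groups, and how often any 2 genes share calls was not counted. COL4A1 over COL4A2 ran from 0.745 to 1.66. Its mean was 0.786 ± 0.0367 in RA-CHIR/BMP4 cells, 0.802 ± 0.038 in CHIR/BMP4 cells, 0.951 ± 0.0685 in RA day 9 cells, 0.815 ± 0.0247 in untreated day 9 cells, 0.987 ± 0.0651 in RA day 6 cells and 1.52 ± 0.141 in untreated day 6 cells (SD, n = 3 each). Untreated day 6 cells thus had relatively more COL4A1. Between untreated day 9 and untreated day 6 cells the calls were opposite, lower for COL4A1 (log2 -0.36 ± 0.12, adjusted p = 0.0171) and higher for COL4A2 (log2 0.54 ± 0.09, adjusted p = 2.5e-05). The COL4A1 call was lost without untreated day 6 library 1 (log2 -0.22, adjusted p = 0.13), untreated day 9 library 1 (adjusted p = 0.054) or untreated day 9 library 3 (adjusted p = 0.057). It was also lost without untreated day 6 libraries 1 and 3 together (log2 -0.23, adjusted p = 0.27) and with the library share as a covariate (adjusted p = 0.1). COL4A5 over COL4A6 was 0.925 ± 0.0171 in RA-CHIR/BMP4 cells, 0.705 ± 0.0301 in CHIR/BMP4 cells, 0.485 ± 0.0202 in RA day 9 cells and 0.525 ± 0.0419 in untreated day 9 cells.

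Of the 4 pairs plotted, COL1A1 with COL1A2 and the 3 type IV pairs, the type I chains had the widest span. Most type I collagen contains more α1 than α2 chains. The TPM ratio of COL1A1 to COL1A2 was 1.88 ± 0.0815 in RA-CHIR/BMP4 cells, 0.28 ± 0.0408 in CHIR/BMP4 cells, 3.55 ± 0.186 in RA day 9 cells, 0.473 ± 0.222 in untreated day 9 cells, 2.7 ± 0.31 in RA day 6 cells and 3.2 ± 0.273 in untreated day 6 cells. At day 9 all 6 libraries with RA were above 1 and all 6 without RA were below 1. The ratio spanned 15.9-fold over the 18 libraries. Among ratios not plotted, COL9A1 over COL9A3 spanned 34.5-fold, COL3A1 over COL5A2, chains of different collagen types, 20.5-fold, and COL5A1 over COL5A2 12.2-fold. COL9A2 over COL9A3 spanned 5.48-fold, COL11A1 over COL2A1 3.93-fold and COL6A1 over COL6A2 1.75-fold. The last span was narrower than that of any type IV pair, over TPM levels that themselves spanned 2.19-fold and 2.81-fold. No test was made of the ratios.

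**Figure D5:**
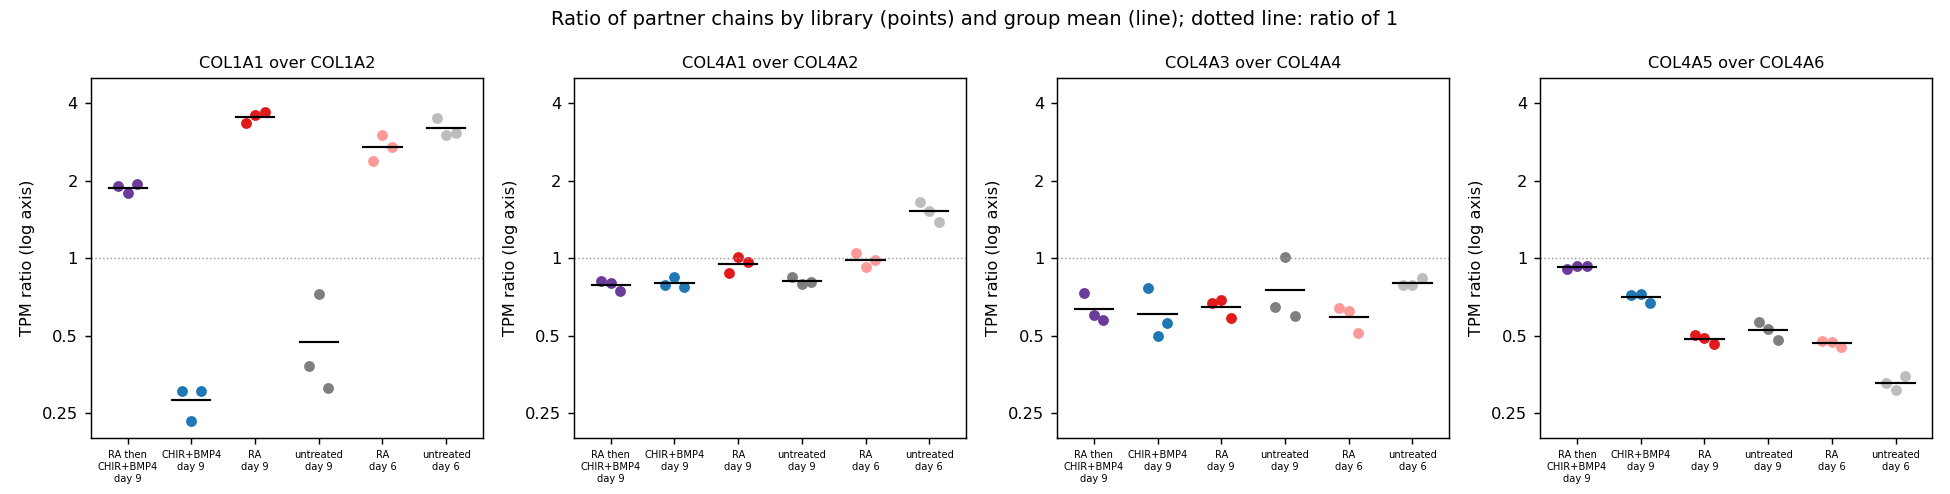
TPM ratio (y axis, log scale) of partner chains in each library (points), with the group mean (line), by group; the dotted line marks a ratio of 1. COL1A1 over COL1A2 ran from 0.233 to 3.7, whereas COL4A3 over COL4A4 stayed between 0.499 and 1.01.

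Among the other collagens, the multiplexins COL18A1 and COL15A1 lie in the basement membrane zone. COL18A1 had 1440, 1540 and 1570 CPM in RA-CHIR/BMP4 cells, 1180, 1240 and 1100 CPM in CHIR/BMP4 cells, 1400, 1470 and 1420 CPM in RA day 9 cells, and 790, 671 and 679 CPM in untreated day 9 cells. The day 6 libraries had 1860, 1960 and 2010 CPM in RA cells and 1200, 942 and 881 CPM in untreated cells. RA libraries were higher than those without RA at each step, without overlap: 1.93-fold at day 6 (log2 0.95 ± 0.09, adjusted p = 1.1e-08), 2.01-fold at day 9 (log2 1.0 ± 0.09, adjusted p = 2.1e-09) and 1.3-fold under CHIR/BMP4 (log2 0.37 ± 0.09, adjusted p = 0.00193). COL15A1, its relative, varied between 2.61 and 29.2 CPM, with 14.6, 11.8 and 10.8 CPM in RA-CHIR/BMP4 cells, 14.5, 29.2 and 22.3 CPM in CHIR/BMP4 cells, 21.2, 12 and 17.9 CPM in RA day 9 cells, and 2.61, 15.5 and 16.6 CPM in untreated day 9 cells. It had 8.61, 4.01 and 7.5 CPM in RA day 6 cells and 9.92, 15.1 and 19.3 CPM in untreated day 6 cells, and it was not called in any of the 7 comparisons of 2 groups or the 2 interactions. COL7A1, which anchors epithelial basement membranes to the tissue below, was 2.41-fold higher in CHIR/BMP4 than in untreated day 9 cells (log2 1.27 ± 0.12, adjusted p = 1.9e-08).

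Type VI collagens form beaded filaments around cells. COL6A1 had 223, 221 and 251 CPM in RA-CHIR/BMP4 cells, 283, 277 and 288 CPM in CHIR/BMP4 cells, 175, 192 and 210 CPM in RA day 9 cells, and 163, 162 and 172 CPM in untreated day 9 cells. Day 6 values were 165, 175 and 173 CPM in RA cells and 172, 147 and 164 CPM in untreated cells, where the groups overlapped. COL6A2 had 83.1, 90.1 and 97.3 CPM in RA-CHIR/BMP4 cells, 158, 173 and 175 CPM in CHIR/BMP4 cells, 106, 101 and 116 CPM in RA day 9 cells, and 77.1, 106 and 95.2 CPM in untreated day 9 cells. At day 6 COL6A2 had 64.1, 75 and 76 CPM in RA cells and 92.1, 78.6 and 99.9 CPM in untreated cells. Both were highest in CHIR/BMP4 cells, without overlap with any other group, and were lower with prior RA: 1.23-fold for COL6A1 (log2 -0.29 ± 0.07, adjusted p = 0.00211) and 1.88-fold for COL6A2 (log2 -0.91 ± 0.1, adjusted p = 2.3e-07).

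COL6A3, the longest type VI chain, varied more. It had 13.8, 14.5 and 16.8 CPM in RA-CHIR/BMP4 cells, 91, 105 and 58.2 CPM in CHIR/BMP4 cells, 25.5, 55.2 and 44.3 CPM in RA day 9 cells, and 32.5, 35.1 and 6.39 CPM in untreated day 9 cells. At day 6 it had 1.88, 0.817 and 3.26 CPM in RA cells and 6.43, 7.8 and 3.65 CPM in untreated cells. It was 5.67-fold lower in RA-CHIR/BMP4 than in CHIR/BMP4 cells (log2 -2.50 ± 0.44, adjusted p = 0.0005). It was 23.6-fold higher in RA day 9 than in RA day 6 cells (log2 4.56 ± 0.66, adjusted p = 5e-05). Its lower level in RA-CHIR/BMP4 than in RA day 9 cells (log2 -1.51 ± 0.46, adjusted p = 0.0109) was not called without RA day 9 library 2 (adjusted p = 0.052). COL6A6 stayed at or below 3.2 CPM.

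COL8A1, a short-chain collagen of vessel walls and of the cornea, was 81.2, 115 and 108 CPM in RA day 9 cells and 26.4, 49.9 and 28.7 CPM in untreated day 9 cells. With CHIR99021 and BMP4 it was low, at 0.765, 0.402 and 0.689 CPM in RA-CHIR/BMP4 cells and 0.724, 1.11 and 0.829 CPM in CHIR/BMP4 cells. It was 153-fold lower in RA-CHIR/BMP4 than in RA day 9 cells (log2 -7.26 ± 0.38, adjusted p = 2.3e-10) and 39.1-fold lower in CHIR/BMP4 than in untreated day 9 cells (log2 -5.29 ± 0.38, adjusted p = 3.3e-08). At day 6 COL8A1 had 1.21, 1.55 and 3.26 CPM in RA cells and 11.3, 8.28 and 5.26 CPM in untreated cells, again without overlap. COL8A2 stayed at or below 2.07 CPM. It was called higher in RA day 9 than in RA day 6 cells on 17 and 3 counts over the groups, a ratio of 6.48 with a 95% counting interval of 1.87 to 34.5.

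Fibril-associated collagens sit on the surface of fibrils. COL12A1, found on type I fibrils, had 22.5, 23.8 and 18.9 CPM in RA-CHIR/BMP4 cells, 6.95, 9.31 and 6.22 CPM in CHIR/BMP4 cells, 114, 179 and 258 CPM in RA day 9 cells, and 11.6, 17.5 and 9.5 CPM in untreated day 9 cells. The day 6 libraries had 18, 16.7 and 18.7 CPM in RA cells and 25.9, 21.6 and 14.1 CPM in untreated cells. Like COL1A1, it stood alone in RA day 9 cells, 14.7-fold over untreated day 9 cells (log2 3.88 ± 0.31, adjusted p = 8.4e-08). It was 8.42-fold lower in RA-CHIR/BMP4 than in RA day 9 cells (log2 -3.07 ± 0.28, adjusted p = 3.5e-07).

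The 3 chains of type IX collagen, which coats type II fibrils, did not move as 1. COL9A1 had 28.9, 22.9 and 28.5 CPM in RA-CHIR/BMP4 cells, 22.2, 25.1 and 25.6 CPM in CHIR/BMP4 cells, 2.89, 2.3 and 2.33 CPM in RA day 9 cells, and 8.44, 10.2 and 8.47 CPM in untreated day 9 cells. Day 6 values were 28.1, 28 and 35.3 CPM in RA cells and 18.8, 23.6 and 27.3 CPM in untreated cells. RA day 9 libraries were the lowest of all, 3.59-fold below untreated day 9 cells (log2 -1.84 ± 0.21, adjusted p = 6.2e-08). COL9A3 ran the other way, with 68.6, 86.7 and 71.4 CPM in RA-CHIR/BMP4 cells, 112, 116 and 118 CPM in CHIR/BMP4 cells, 177, 157 and 191 CPM in RA day 9 cells, and 82.4, 72.3 and 73.8 CPM in untreated day 9 cells. At day 6 COL9A3 had 124, 125 and 141 CPM in RA cells and 143, 109 and 138 CPM in untreated cells. It was 2.28-fold higher in RA day 9 than in untreated day 9 cells (log2 1.19 ± 0.1, adjusted p = 8.7e-10), and COL9A1 and COL9A3 had opposite calls in 3 of 7 comparisons. COL9A2 had 9.42, 13.1 and 11.4 CPM in RA-CHIR/BMP4 cells, 31, 27.6 and 29.3 CPM in CHIR/BMP4 cells, 14.8, 7.94 and 10.4 CPM in RA day 9 cells, and 8.92, 7.66 and 7.95 CPM in untreated day 9 cells. At day 6 COL9A2 had 15.9, 14 and 21.5 CPM in RA cells and 14.1, 10.7 and 7.51 CPM in untreated cells. CHIR/BMP4 libraries were highest for COL9A2, 3.5-fold over untreated day 9 cells (log2 1.81 ± 0.21, adjusted p = 6.4e-07).

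Of the remaining fibril-associated genes, COL22A1, known from junctions such as that of muscle and tendon, was highest in RA day 6 cells. It had 65.2, 81.8 and 91.6 CPM in RA day 6 cells and 21.9, 20.2 and 25.3 CPM in untreated day 6 cells, a 3.51-fold difference (log2 1.81 ± 0.15, adjusted p = 5.5e-09). At day 9 it had 5.4, 5.02 and 5.38 CPM in RA-CHIR/BMP4 cells and 38.1, 41.5 and 34.4 CPM in CHIR/BMP4 cells, 7.14-fold lower with prior RA (log2 -2.84 ± 0.18, adjusted p = 1e-10). COL19A1, a chain of basement membrane zones, had 1.88, 1.47 and 2.41 CPM in RA day 6 cells and 15.3, 13.2 and 20.9 CPM in untreated day 6 cells, 8.91-fold lower with RA (log2 -3.16 ± 0.33, adjusted p = 7.3e-08). COL14A1 stayed between 7.06 and 36.1 CPM, COL16A1 between 0.691 and 5.33 CPM and COL21A1 between 0.723 and 5.3 CPM.

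Transmembrane collagens were low. COL17A1, the hemidesmosome collagen of stratified epithelia, had 1.15, 1.1 and 0.965 CPM in RA-CHIR/BMP4 cells, 1.3, 1.44 and 2.44 CPM in CHIR/BMP4 cells, 0.642, 0.627 and 0.111 CPM in RA day 9 cells, and 2.57, 1.53 and 0.691 CPM in untreated day 9 cells. At day 6 COL17A1 had 1.1, 1.39 and 0.708 CPM in RA cells and 2.55, 2.71 and 2.15 CPM in untreated cells. It was called lower with RA at day 9 (log2 -2.07 ± 0.5, adjusted p = 0.00093), but not without untreated day 9 library 1 (log2 -1.30, adjusted p = 0.078). COL13A1, found at the neuromuscular junction, had 1.1, 1.51 and 1.38 CPM in RA-CHIR/BMP4 cells and 8.54, 6.65 and 7.1 CPM in CHIR/BMP4 cells, 5.79-fold lower with prior RA (log2 -2.53 ± 0.27, adjusted p = 6.9e-08). COL23A1 was 3.37-fold higher in RA-CHIR/BMP4 than in RA day 9 cells (log2 1.75 ± 0.23, adjusted p = 6.8e-07). COL25A1, needed for motor neurons to innervate muscle in mice, was highest in RA-CHIR/BMP4 cells, with 19.2, 17.3 and 19.3 CPM, against 7.16, 10.3 and 5.85 CPM in CHIR/BMP4 cells (log2 1.31 ± 0.18, adjusted p = 4.4e-06). Of the last 2 genes, COL26A1 had 164, 156 and 164 CPM in RA-CHIR/BMP4 cells, 275, 273 and 302 CPM in CHIR/BMP4 cells, 113, 129 and 112 CPM in RA day 9 cells and 189, 205 and 187 CPM in untreated day 9 cells, and COL28A1 stayed at or below 1.93 CPM.

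The response to RA at day 9 differed with and without CHIR99021 and BMP4. The interaction was called for 32 of 41 collagen genes, or 78%, against 53.4% of all genes called in that test (25.5% higher, 27.9% lower). It was negative for 27 collagen genes, including all 6 type IV and 8 of 11 fibrillar genes, and positive for 5. The median was -1.59 for collagens and 0.00 for all tested genes. This test sets treated against untreated libraries, so it is subject to the library feature described above. The interaction of RA with day was positive for 19 collagen genes and negative for 6, against 50.9% of all genes called (24.9% higher, 26% lower). With the library share as a covariate, 20 of those 25 calls stayed in the same direction.

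The enzymes that make collagen, the molecules that bind it and those that degrade it were examined alongside. Of 20 tested folding and modification genes, 1 was higher and 14 were lower in RA-CHIR/BMP4 than in CHIR/BMP4 cells, against 21.2% of all genes higher and 22.1% lower. The median log2 change of the list was -0.38, beside -0.01 for all tested genes. SERPINH1, the collagen chaperone HSP47, averaged 386 ± 17.3 CPM in RA-CHIR/BMP4 cells and 726 ± 11.5 CPM in CHIR/BMP4 cells (SD, n = 3 each; adjusted p = 3e-10), 1.88-fold lower. P4HB, a subunit of the prolyl hydroxylase that stabilizes the helix, averaged 451 ± 1.7 CPM in RA-CHIR/BMP4 cells and 744 ± 27.9 CPM in CHIR/BMP4 cells (adjusted p = 2.2e-08). In CHIR/BMP4 against untreated day 9 cells, 11 of these genes were higher and 0 lower, against 21% of all genes higher and 21.8% lower. Among the 11 was P4HA1 at 283 ± 18.6 CPM in CHIR/BMP4 cells and 138 ± 36.6 CPM in untreated day 9 cells (adjusted p = 0.00013). Of 13 tested processing and crosslinking genes, 2 were higher and 8 lower in RA-CHIR/BMP4 than in CHIR/BMP4 cells, against the same 21.2% and 22.1% of all genes. LOXL2, a lysyl oxidase that crosslinks type IV collagen, averaged 28.8 ± 3.92 CPM in RA-CHIR/BMP4 cells and 401 ± 82.4 CPM in CHIR/BMP4 cells, 13.9-fold lower (adjusted p = 3.6e-09).

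Of 7 tested collagen receptors, 0 were higher and 6 lower in RA-CHIR/BMP4 than in RA day 9 cells, a comparison in which 64.4% of all genes were called (32.1% higher, 32.3% lower). ITGA2, an integrin chain that binds collagen, averaged 17 ± 0.763 CPM in RA-CHIR/BMP4 cells and 139 ± 49.5 CPM in RA day 9 cells, 8.12-fold lower (adjusted p = 9.2e-09). DDR1, a receptor kinase activated by collagen, averaged 185 ± 1.17 CPM in RA-CHIR/BMP4 cells and 366 ± 2.44 CPM in RA day 9 cells (adjusted p = 5.3e-10). With RA at day 6, 1 of the 7 receptors was higher and 3 were lower, against 25.3% of all genes higher and 23.4% lower. The list's median log2 change was -0.57. The 1 higher was ITGA11, an integrin chain for fibrillar collagen. It averaged 49.1 ± 4.33 CPM in RA day 6 cells and 0.659 ± 0.13 CPM in untreated day 6 cells, 73.8-fold higher (adjusted p = 7.5e-12). Of 13 tested matrix genes that bind collagen, 2 were higher and 10 lower in RA-CHIR/BMP4 than in RA day 9 cells, against the same 32.1% and 32.3% of all genes. FN1, fibronectin, averaged 3660 ± 150 CPM in RA-CHIR/BMP4 cells and 31200 ± 5020 CPM in RA day 9 cells, 8.53-fold lower (adjusted p = 1.5e-13). HSPG2, the basement membrane proteoglycan perlecan, averaged 964 ± 52.7 CPM in RA-CHIR/BMP4 cells and 2640 ± 616 CPM in RA day 9 cells (adjusted p = 1.9e-08). Of 8 tested degradation genes, 0 were higher and 5 lower there, a share called that is near the 64.4% of all genes. The membrane collagenase MMP14 was lower, at 219 ± 0.979 CPM in RA-CHIR/BMP4 cells and 647 ± 39.8 CPM in RA day 9 cells (adjusted p = 4.4e-12).

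The summed cardiac, smooth muscle and endoderm markers were highest in RA day 9 cells, whereas the endothelial and neural crest sums were not. The collagens COL1A1, COL3A1, COL5A1 and COL12A1 were also highest there. Of 8 tested endoderm genes, 7 were higher and 0 lower in RA day 9 than in untreated day 9 cells. The summed level of 9 cardiac markers was 1200 to 1730 CPM in RA day 9 cells and at most 70 CPM in any other library, led by MYH6 at 723 ± 171 CPM and MYL7 at 553 ± 74 CPM in RA day 9 cells. Of 8 tested cardiac genes, 6 were higher and 1 was lower in RA day 9 than in untreated day 9 cells, against 32.5% of all genes in each direction. NKX2-5 went the other way from the sum, averaging 12.5 CPM in RA day 9, 36.4 CPM in untreated day 9 and 44.1 CPM in CHIR/BMP4 cells. TBX5 averaged at most 0.382 CPM in any group. All 8 tested cardiac genes were higher in RA day 9 than in RA day 6 cells, against 28.5% of all genes. In RA-CHIR/BMP4 cells the sum was 9.34 to 11 CPM, with MYBPC3 at 0. The 6 smooth muscle markers summed to 75.4 to 91.4 CPM in RA-CHIR/BMP4 cells, 51.2 to 58.3 CPM in CHIR/BMP4 cells, 3140 to 4160 CPM in RA day 9 cells, 267 to 385 CPM in untreated day 9 cells, 128 to 161 CPM in RA day 6 cells and 361 to 575 CPM in untreated day 6 cells. The 10 mesenchyme markers summed to 107 to 114 CPM in RA-CHIR/BMP4 cells, 132 to 169 CPM in CHIR/BMP4 cells, 181 to 285 CPM in RA day 9 cells, 96.9 to 147 CPM in untreated day 9 cells, 169 to 171 CPM in RA day 6 cells and 223 to 239 CPM in untreated day 6 cells, so untreated day 6 and RA day 9 cells overlapped. Of 8 tested mesenchyme genes, 3 were higher and 3 lower in RA day 9 than in untreated day 9 cells. POSTN, which encodes the matrix protein periostin, averaged 105 CPM in RA day 9 cells and 11.6 CPM in untreated day 9 cells, and THY1 averaged 5.64 CPM in RA day 9 cells and 15 CPM in untreated day 9 cells. TWIST2 had no counts in RA-CHIR/BMP4 cells or RA day 6 cells. The 6 endothelial markers summed to 50.7 to 66 CPM in RA-CHIR/BMP4 cells, 56.8 to 76.8 CPM in RA day 9 cells and 18.2 to 116 CPM in untreated day 9 cells, which overlapped. The 5 neural crest markers summed to 196 to 203 CPM in RA-CHIR/BMP4 cells, 127 to 141 CPM in RA day 9 cells and 150 to 185 CPM in untreated day 9 cells. The part of these markers in the collagen results was not tested. In bulk RNA, a change in the number of cells of a type and a change in RNA per cell cannot be told apart.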

How the data were processed

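RNA was extracted with a Nucleospin kit and sequenced as stranded mRNA (TruSeq), per the labels. The authors deposited 2 tables for 18 libraries and 35025 genes, one of raw counts and one of TPM values (transcripts per 1000000). Per the submitters' processing notes, STAR 2.7.9 and GRCh38 were used. How reads were assigned to genes, with which annotation and whether by strand, is not stated. Of the 44 collagen genes, 28 overlap another RefSeq gene, among them COL4A4 (RHBDD1), COL18A1 (SLC19A1) and COL9A3 (TCFL5), so their counts are uncertain to that extent. Start positions in the count table were made 1-based, and the position of COL11A2 is not used here.

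Groups came from the sample labels. A further 36 genes without a symbol, with 0.00102% of counts, were left out. In R 4.3.3, edgeR 4.0.16 kept 15531 genes (filterByExpr, minimum count 10), scaled libraries by TMM and fitted 1 robust quasi-likelihood model with 1 mean per group over all 18 libraries. Benjamini-Hochberg adjustment ran over all tested genes. CPM values use the same scaling, and ± is the SD over 3 libraries or, for log2 changes, the standard error (SE). The fit was tested on simulated data. The median biological coefficient of variation was 8.52%. Counting intervals cover counting error only.

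The collagen genes, their classes and the other lists were chosen with earlier results of these data known. Values per library were given for 19 collagens chosen for their known roles and for up to 6 called collagens per direction and comparison with at least 5 CPM and the largest fold. For other lists, up to 4 called genes with the highest mean CPM could be named. Alternatives were other scalings, no filter, DESeq2 1.42.0, limma 3.58.1 on log2(TPM + 1), fits of only the groups compared, a replicate block, the library covariate and leaving out libraries.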

Additional observations from a re-analysis of the deposited data

Results flagged for a closer look

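For the 18 results flagged here the effect of RA differed between settings, by a test of the difference itself (an interaction in edgeR's quasi-likelihood fit, on the log2 scale). They are the called collagens with the largest fold, up to 6 per direction, at least 2-fold and with at least 5 CPM in a group. In all, 32 collagen genes were called for RA by CHIR/BMP4 and 25 for RA by day. With the library share as a covariate, 0 of the 32 were called. Without and with CHIR99021 and BMP4 at day 9, the RA effect with the 2 factors minus that without them was -4.0 for COL1A1, -3.83 for COL1A2, -4.43 for COL5A2, -5.21 for COL5A3, -5.81 for COL24A1 and -3.21 for COL6A3. It was positive for COL27A1 (1.05), COL9A1 (1.99), COL19A1 (2.24) and COL25A1 (1.35). COL5A3 had 5 counts over the 3 RA-CHIR/BMP4 libraries, 10 in CHIR/BMP4 cells and 12 in untreated day 9 cells, so its value rests on few reads. It was -6.22 without RA-CHIR/BMP4 library 1 and -4.50 without CHIR/BMP4 library 1. COL24A1 also rests on few reads outside CHIR/BMP4 cells. It had 14 counts in RA-CHIR/BMP4, 25 in RA day 9 and 23 in untreated day 9 cells. COL19A1 was at 2.84 without RA day 9 library 3.

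The RA effect at day 9 minus that at day 6 was 3.35 for COL1A1, 3.55 for COL3A1, 4.16 for COL5A3, 3.66 for COL4A3, 3.68 for COL8A1 and 4.07 for COL12A1. It was negative for COL9A1 (-2.22) and COL22A1 (-2.43). Without untreated day 9 library 2, which stood apart for COL3A1, that gene's value was 4.77. That library was also the highest of its group for COL1A1, COL5A1, COL5A2 and COL8A1, but not for COL1A2 or COL2A1.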

How the results depend on the processing

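With the library share as a covariate, the number of collagen genes called was 0 for RA at day 6, for RA at day 9, for CHIR/BMP4 without RA and for the interaction of RA with CHIR/BMP4, in place of 20, 28, 26 and 32. The covariate varies within a group almost only in untreated day 6 cells, so these fits have little to separate it from treatment. Under it 15 gene results changed sign, with log2 changes at day 6 (RA) of -1.06 for COL7A1, -0.33 for COL4A2, -0.82 for COL9A1, 1.28 for COL8A1 and 0.60 for COL17A1, and at day 9 (RA) of -0.54 for COL6A1 and -0.71 for COL9A3. For CHIR/BMP4 without RA they were -0.82 for COL2A1, -0.03 for COL5A1, -0.61 for COL4A2, -0.94 for COL6A2 and -1.29 for COL9A3, and for the interaction 0.25 for COL6A1, 0.70 for COL6A2 and 0.10 for COL9A3. Of the calls within treated libraries, 29 of 30 (RA-CHIR/BMP4 against CHIR/BMP4), 31 of 33 (against RA day 9) and 28 of 28 (RA day 9 against day 6) stayed; of those for untreated day 9 against day 6, 19 of 26 stayed. Without untreated day 6 libraries 1 and 3, 11 genes were called for RA at day 6.

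Leaving out 1 library at a time, the number called was 14 to 17 (RA at day 6), 28 to 31 (RA at day 9), 24 to 27 (CHIR/BMP4 without RA), 27 to 31 (RA before CHIR/BMP4), 29 to 32 (CHIR/BMP4 after RA), 22 to 24 (day 9 against day 6, untreated), 27 to 32 (day 9 against day 6, RA), 30 to 33 (RA by CHIR/BMP4) and 24 to 28 (RA by day). Of 170 gene results, 168 kept their call and direction with DESeq2, 168 with no filter and 159 with limma on TPM, where the median log2 change of all tested genes reached 0.26 (RA at day 9), beside -0.02 from counts; the cause was not tested. The summed log2 ratio of the other collagens in RA-CHIR/BMP4 over RA day 9 cells was -0.12 in scaled CPM and turned to 0.12 as a share of raw counts and 0.00 in TPM. That of the fibrillar collagens in untreated day 9 over day 6 cells was 0.25 in scaled CPM and turned to -0.01 in TPM. The replicate numbers did not pair libraries: same-numbered deviations correlated at -0.11 to 0.23, 4 of 45 pairs were over 0.1 and 8 of 18 libraries correlated best with their own number. With the replicate block, 168 of 170 gene results kept their call, and 20, 30, 25, 31, 32, 27, 29, 32 and 25 collagen genes were called in the order above. Genes with few counts, such as COL8A2, COL28A1 and COL17A1, have the least precision.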
